A study of Mus musculus with 3 samples.

Results

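Interferon response genes were followed as a set of 36 named genes in 3T3-L1 adipocytes, a mouse fibroblast line differentiated into fat cells in vitro, after 2 h with glucose oxidase. The genes were taken by name, and each was read from probe sets whose platform annotation gives 1 gene. Of the 36 genes, 33 had such a probe set and were measured, out of 18194 genes measured in this way on the array. Gbp4, Isg15 and Ifi44 had none and are reported as not measured.

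All 3 samples belonged to 1 group, 3T3-L1 adipocytes treated with glucose oxidase, an enzyme that releases hydrogen peroxide as it oxidises glucose, and their RNA was hybridised to mouse4302 Affymetrix arrays. The labels describe the treated cells as insulin resistant, and a tissue label names preadipocytes although the growth protocol describes differentiation. Untreated cells were not analysed here. The values are therefore those of treated cells alone and show neither induction nor repression. The sources used here do not say whether the 3 samples came from separate cultures, and the spread between them may be technical.

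Interferons are secreted proteins, and many cells release those of type I on sensing viral nucleic acid. Type I interferons bind the receptor made of IFNAR1 and IFNAR2, and type II interferon binds IFNGR1 and IFNGR2. Receptor-bound JAK kinases then phosphorylate STAT proteins. STAT2 and IRF9 belong to a complex that binds the interferon-stimulated response element (ISRE) of many antiviral genes, whereas dimers of STAT proteins bind the gamma-activated site (GAS). Many cells also keep a low, constitutive level of such transcripts.

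Most interferon response genes gave a signal well clear of background in the treated adipocytes, whereas no measured interferon gene did so in all 3 arrays. A gene was called above background if any of its probe sets exceeded a log2 intensity of 7.58 in all 3 arrays, the 95th percentile of 84 probe sets of receptor genes for smell, pheromones and taste. By this rule 31 of the 33 measured members were above background, against 54.4% of all genes. The members and the other gene lists were chosen with earlier results of these data known, so their counts are not independent of the data. The exceptions were Irf4 and Irf8. All 4 receptor genes, all 3 RNA sensor genes, all 3 IFIT genes and all 4 oligoadenylate synthetase genes were above background, as were 7 of 9 transcription factor genes. Of the members above background, 23 lay more than 2 log2 units over the limit in every array, which 46.5% of all genes above background did. Signals of different probe sets depend on their probes as well as on the transcript, so levels are not compared between genes.

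The call depends partly on how many probe sets a gene has. Of the members, 19 had a single probe set and all 19 were above background, against 39.2% of the 9182 genes with a single probe set. With 2 probe sets the count was 6 of 8 members, against 62.0% of genes, and with 3 or more it was 6 of 6, against 78.4%. When the median over probe sets had to pass, the same 31 members were above background, against 43.8% of all genes. When every probe set had to pass, 25 members were, against 31.4% of all genes. With the 99th percentile of the receptor probe sets as the limit, a log2 intensity of 8.04, the count was 29 members, against 47.8% of all genes, since Irf5 and Oasl1 no longer passed.

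**Figure D1:**
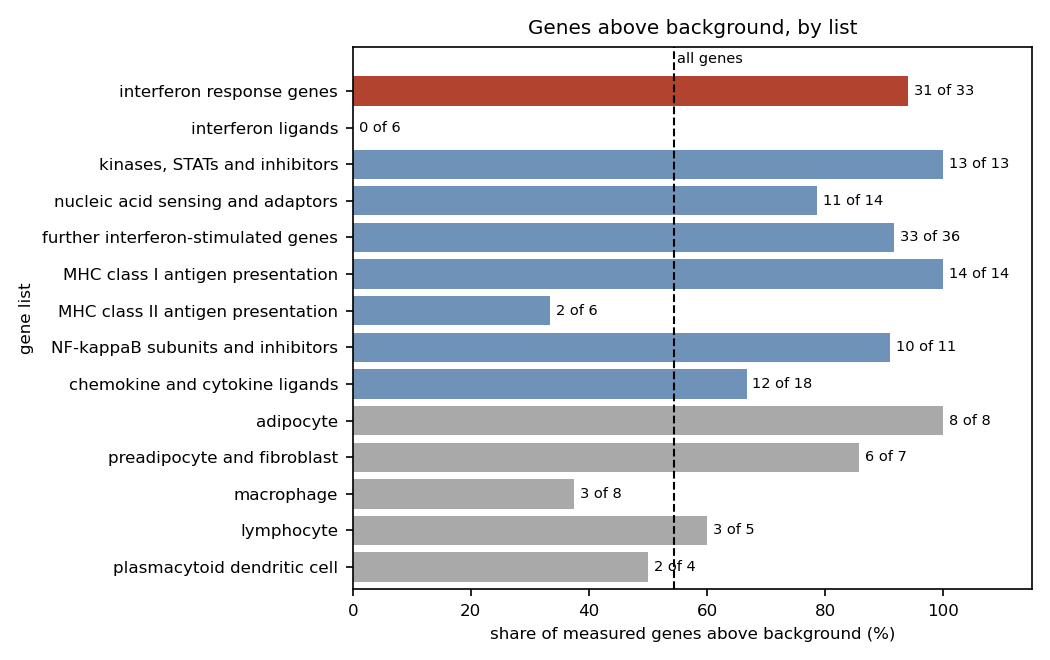
Share of measured genes above background (x axis, %) for interferon response genes (red), other genes of the pathway and related genes (blue) and cell type markers (grey), with counts beside the bars and the share of all genes as a dashed line at 54.4%. Interferon response genes stand at 31 of 33 and interferon ligands at 0 of 6.

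Cell identity and array quality were checked with marker genes, whose counts stand beside the 54.4% of all genes above background. All 8 measured adipocyte markers were above background, such as Fabp4, the fatty acid carrier, and the adiponectin gene Adipoq, and 6 of 7 preadipocyte and fibroblast markers were too. Among markers of immune cells the count was 3 of 8 for macrophages (Cd14, Csf1r and Lyz2), 3 of 5 for lymphocytes (Cd3e, Cd4 and Cd8a) and 2 of 4 for plasmacytoid dendritic cells (Tcf4 and the member Bst2). The pan-leukocyte gene Ptprc was not above background, at 4.79, 4.49 and 4.63 in replicates 1, 2 and 3. Of the macrophage markers, Adgre1, Cd68, Itgam and Mrc1 were not above background either. The lymphocyte markers Cd79a and Ms4a1 and the dendritic cell markers Siglech and Spib were not above background. All measured lymphocyte and dendritic cell markers are named, a choice made after their values were seen. In RNA of a whole culture, fewer cells of a type and less RNA per cell cannot be told apart. Any pair of arrays correlated across probe sets above background with a Pearson's r between 0.997 and 0.998. Of the control probe sets, those of actin gave ratios of 3' to 5' signal of 1.70, 1.58 and 1.54 in replicates 1, 2 and 3, and those of Gapdh gave 1.11, 1.14 and 1.10.

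Some of these genes share a short motif in their promoter sequence. RefSeq promoter windows of build GRCm38.p6, which run from 250 bases before to 50 bases after an annotated start, were matched by symbol for 30 of the 36 members. Dhx58, Oas2, Mx1, Mx2, Gbp4 and Usp18 were not searched. They were searched for GAAANNGAA on both strands as the ISRE and for TTCNNNGAA, which reads the same on both strands, as the GAS. An ISRE match was present in 13 of the 30 members (43.3%), against 9.76% of the 27025 genes with a window. With 1 further A at its 3' end, the pattern was present in 12 of the 30, against 3.99% of genes. A GAS match was present in 9 of the 30 (30.0%), against 9.55% of genes. Over all 32851 windows, 8.56% held an ISRE match and 8.30% a GAS match. A match describes the letters only and is not evidence of a bound site.

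The following stretches show how the matches are arranged, singly or in overlapping runs, in members above background and in Irf8, which was not. They are written 5' to 3' on the strand of the gene, with the ISRE and GAS matches in capitals and up to 20 bases on either side. An ISRE match on the opposite strand reads as TTCNNTTTC.
Stat2, chr10:128270257-128270305, plus strand: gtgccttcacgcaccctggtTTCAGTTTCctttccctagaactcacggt
Irf1, chr11:53769904-53769952, plus strand: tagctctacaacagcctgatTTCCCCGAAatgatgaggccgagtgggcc
Irf8, chr8:120736167-120736233, plus strand: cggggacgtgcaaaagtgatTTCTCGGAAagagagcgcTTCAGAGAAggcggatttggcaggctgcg
Ifit1, chr19:34640760-34640833, plus strand: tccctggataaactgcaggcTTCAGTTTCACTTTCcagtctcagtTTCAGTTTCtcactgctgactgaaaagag
Ifit3, chr19:34583354-34583455, plus strand: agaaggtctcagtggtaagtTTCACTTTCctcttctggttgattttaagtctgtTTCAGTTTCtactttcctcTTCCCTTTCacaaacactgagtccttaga
Oas3, chr5:120777700-120777754, minus strand: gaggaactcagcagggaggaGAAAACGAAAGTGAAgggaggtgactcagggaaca
Gbp2, chr3:142620585-142620633, plus strand: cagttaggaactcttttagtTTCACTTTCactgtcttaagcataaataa
Gbp3, chr3:142559980-142560034, plus strand: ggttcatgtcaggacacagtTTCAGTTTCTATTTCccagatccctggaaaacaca
Rsad2, chr12:26456543-26456591, minus strand: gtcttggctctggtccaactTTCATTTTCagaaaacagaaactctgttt
Bst2, chr8:71537568-71537628, minus strand: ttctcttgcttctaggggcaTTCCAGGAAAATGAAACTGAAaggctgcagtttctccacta

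In these windows 7 members held more than 1 ISRE match: Ifih1, Ifit1, Ifit3, Oas3, Gbp3, Isg15 and Bst2. Ifit1 had 3 matches between positions -109 and -76 from the start, of which 2 overlapped, and Ifit3 had 3 separate ones between positions -155 and -94. The runs of Oas3 and Gbp3 were 2 overlapping matches each. Of the 23 ISRE matches in members, 18 lay within the 200 bases before the start. Irf2 and Bst2 held both motifs, and in Bst2 the GAS match overlapped the first of 2 ISRE matches. Irf1 had no ISRE match and 1 GAS match, at positions -90 to -82. All 11 measured members with an ISRE match were above background, as were 15 of the 17 measured members whose windows had none. Among all measured genes with a window, 53.3% of those with an ISRE match were above background and 55.9% of those without.

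**Figure D2:**
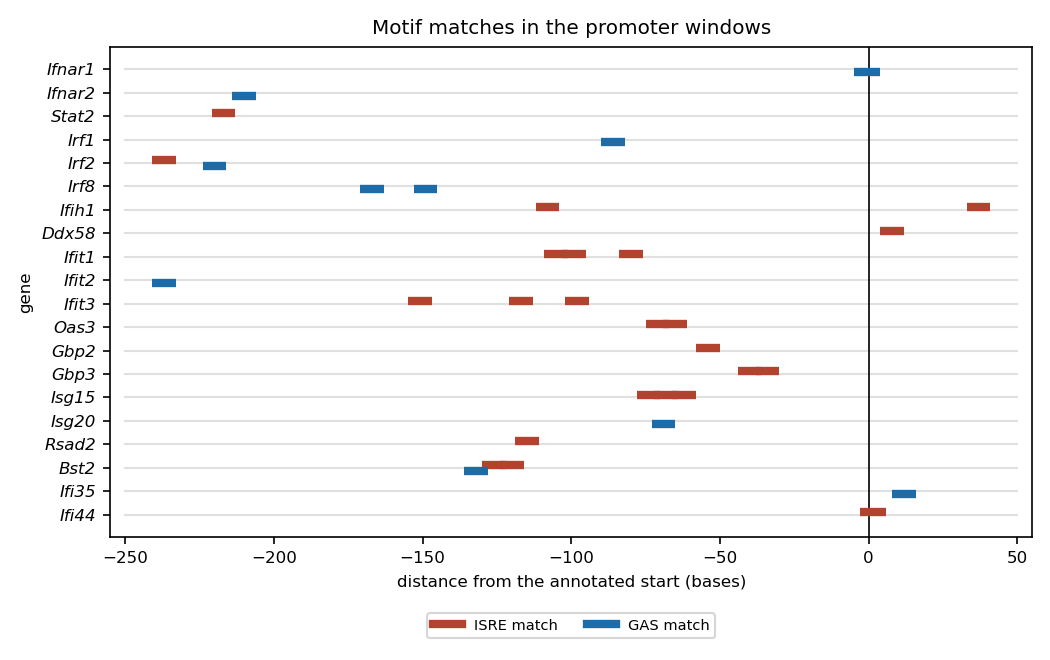
Position of ISRE matches (red) and GAS matches (blue) in the promoter windows of the 20 members that held either, as the distance in bases from the annotated start (x axis), with 1 grey line per member (y axis). Of the 23 ISRE matches, 18 lie within the 200 bases before the start.

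All 4 receptor genes were above background. In what follows, 3 values given together are log2 intensities in replicates 1, 2 and 3. Ifnar1, a chain of the type I receptor, was at 9.60, 9.66 and 9.72 (9.66 ± 0.06, SD, n = 3), although a second probe set lay at 6.07, 5.99 and 6.08. Its partner Ifnar2 was at 11.18, 11.13 and 11.13 (11.15 ± 0.03, SD, n = 3), and all 3 of its probe sets were above background. Both chains of the type II receptor were measured as well. On the probe set of the highest mean, Ifngr2 was the closest of the 4 receptor genes to the limit. With the median of probe sets Ifnar1 was closer, at a mean of 7.85 beside 8.21 for Ifngr2. Ifngr1, the ligand-binding chain, was at 10.12, 10.10 and 9.98 (10.07 ± 0.08, SD, n = 3). Ifngr2 was at 8.31, 8.31 and 8.21 (8.27 ± 0.06, SD, n = 3), and its lowest array lay 0.63 over the limit.

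Transcripts for Stat2 and Irf9, partners in the complex that binds the ISRE, were both above background. Stat2 was at 9.55, 9.55 and 9.58 (9.56 ± 0.02, SD, n = 3), and its second probe set, at 9.04, 9.06 and 9.24, was above background too. Irf9 was at 10.49, 10.53 and 10.39 (10.47 ± 0.07, SD, n = 3). Both had an SD under 0.1.

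Of the interferon regulatory factors that switch on interferon genes, Irf3 and Irf7 were above background. Irf3, which is present before infection and is activated by phosphorylation, was at 10.15, 10.13 and 10.11 (10.13 ± 0.02, SD, n = 3). That value came from a probe set that can cross-hybridise, and of the other 3 probe sets 1 was above background, at 8.38, 8.44 and 8.50. Irf7, itself an interferon-stimulated gene, was at 11.03, 11.15 and 11.17 (11.12 ± 0.07, SD, n = 3) on its only probe set. Irf5, which acts downstream of Toll-like receptors, was at 8.12, 8.11 and 8.03 (8.09 ± 0.05, SD, n = 3), and its second probe set was not above background.

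Irf1 and Irf2, an activator and a repressor that bind related sites, were both above background. Irf1 was at 11.77, 11.77 and 11.80 (11.78 ± 0.01, SD, n = 3), the smallest SD among the members above background. Irf2 was at 9.04, 8.99 and 9.24 (9.09 ± 0.13, SD, n = 3), the largest SD among them, with replicate 3 apart from the other two. Both were read from a single probe set, and that of Irf2 can cross-hybridise. Irf4 and Irf8, which are best known from lymphoid and myeloid cells, were below the limit on both probe sets in every array. Irf4 was at 6.82, 6.73 and 6.93 and Irf8 at 7.35, 7.31 and 7.26 on the probe set of the higher mean.

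The cytosolic RNA sensors were all above background. Ddx58, which encodes RIG-I, was at 11.23, 11.28 and 11.29 (11.27 ± 0.03, SD, n = 3). Ifih1, which encodes MDA5, was at 9.79, 9.93 and 9.99 (9.90 ± 0.10, SD, n = 3), lowest in replicate 1. Dhx58, which encodes the related regulator LGP2, was at 10.26, 10.35 and 10.35 (10.32 ± 0.05, SD, n = 3). Ddx58 and Dhx58 each had a further probe set above background and 1 that was not.

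IFIT proteins bind viral RNA and block its translation, and each of the 3 IFIT genes was read from 1 probe set. Ifit1, whose promoter window held 3 ISRE matches, was at 12.74, 12.84 and 12.83 (12.80 ± 0.06, SD, n = 3). Ifit3, with 3 ISRE matches as well, was at 13.34, 13.36 and 13.42 (13.37 ± 0.04, SD, n = 3). Both lay more than 5 log2 units over the background limit in every array. Ifit2, whose windows held a GAS match and no ISRE match, was at 10.11, 10.20 and 10.35 (10.22 ± 0.12, SD, n = 3). Genes of this and the following families have close paralogues, and signal from a paralogue was not separated.

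Oligoadenylate synthetases make short oligoadenylates on binding double-stranded RNA, and each of the 4 genes was read from 1 probe set. Oas2 was at 10.81, 10.63 and 10.67 (10.70 ± 0.09, SD, n = 3), and Oas3, whose window held 2 overlapping ISRE matches, at 8.13, 8.13 and 8.25 (8.17 ± 0.07, SD, n = 3). The synthetase-like gene Oasl2 was at 11.80, 11.88 and 11.86 (11.84 ± 0.04, SD, n = 3). Oasl1, which restrains translation of Irf7 in mice, was at 7.96, 7.79 and 7.87 (7.88 ± 0.08, SD, n = 3), no more than 0.22 over the limit in its lowest array. Oasl1 was therefore the member above background whose call rested on the narrowest margin.

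All 4 measured genes for interferon-induced GTPases were above background. The dynamin-like Mx1 was at 8.96, 9.05 and 9.00 (9.00 ± 0.05, SD, n = 3) and Mx2 at 10.83, 10.95 and 10.89 (10.89 ± 0.06, SD, n = 3), both lowest in replicate 1. Guanylate binding proteins act against intracellular bacteria and parasites. Gbp2 was at 11.41, 11.47 and 11.56 (11.48 ± 0.08, SD, n = 3) on a probe set that can cross-hybridise, and its other probe set, at 10.76, 10.86 and 10.88, kept the call. Gbp3 was at 11.81, 11.77 and 11.77 (11.78 ± 0.02, SD, n = 3). The arrays of Gbp3 differed by no more than 0.04, and unlike those of Gbp2 they were highest in replicate 1.

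Usp18 encodes the protease that removes the ubiquitin-like protein ISG15 from its targets and also dampens signalling at IFNAR2. It was at 12.23, 12.32 and 12.29 (12.28 ± 0.05, SD, n = 3). Rsad2, which encodes the antiviral enzyme viperin, was at 11.35, 11.50 and 11.56 (11.47 ± 0.11, SD, n = 3). Its other probe sets were at 10.35, 10.55 and 10.54 and at 9.45, 9.66 and 9.76, and all 3 were lowest in replicate 1. Bst2, which encodes tetherin, a membrane protein that holds budding virions, was at 12.07, 12.20 and 12.28 (12.18 ± 0.11, SD, n = 3), again lowest in replicate 1.

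The remaining effectors were above background with less difference between arrays. Xaf1, a pro-apoptotic gene, was at 11.76, 11.83 and 11.76 (11.78 ± 0.04, SD, n = 3), and its second probe set was not above background. Isg20, which encodes an exonuclease, was at 9.44, 9.45 and 9.47 (9.45 ± 0.02, SD, n = 3). Ifi35, whose product partners with NMI, was at 12.29, 12.27 and 12.24 (12.27 ± 0.03, SD, n = 3). The Ifi35 value came from a probe set that can cross-hybridise, and of its other 2 probe sets 1 cannot and was above background at 10.82, 10.92 and 10.85.

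**Figure D3:**
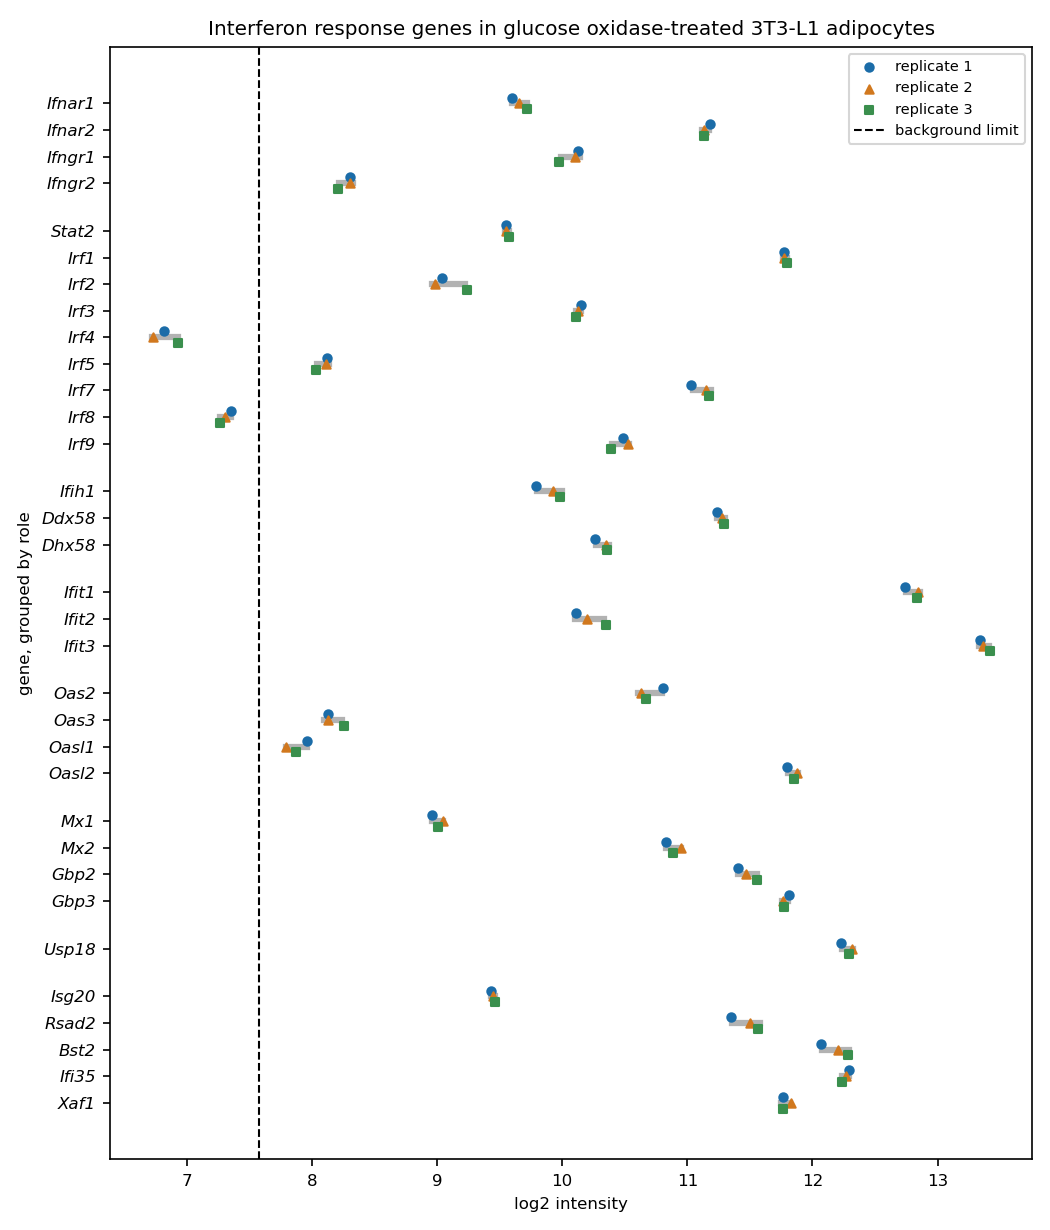
Log2 intensity (x axis) of the 33 measured interferon response genes (y axis, grouped by role) in the 3 glucose oxidase-treated samples, with 1 symbol per replicate, the mean ± SD as a grey bar (n = 3) and the background limit as a dashed line at 7.58. Irf4 and Irf8 lie left of the line in every replicate, and levels cannot be set against each other between genes.

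Probe sets of the same gene did not always give the same call. The 33 measured members had 54 probe sets, of which 43 (79.6%) were above background, against 45.2% of all probe sets with 1 gene. Of the 14 members with several probe sets, 6 had all of them above background, namely Ifnar2, Ifngr2, Stat2, Gbp2, Rsad2 and Ifi35. In 6 others, Ifnar1, Irf3, Irf5, Ddx58, Dhx58 and Xaf1, some probe sets were above and some were not, and in Irf4 and Irf8 none was. Probe sets of 1 gene can detect different transcripts or sites, and which of these applied was not tested.

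**Figure D4:**
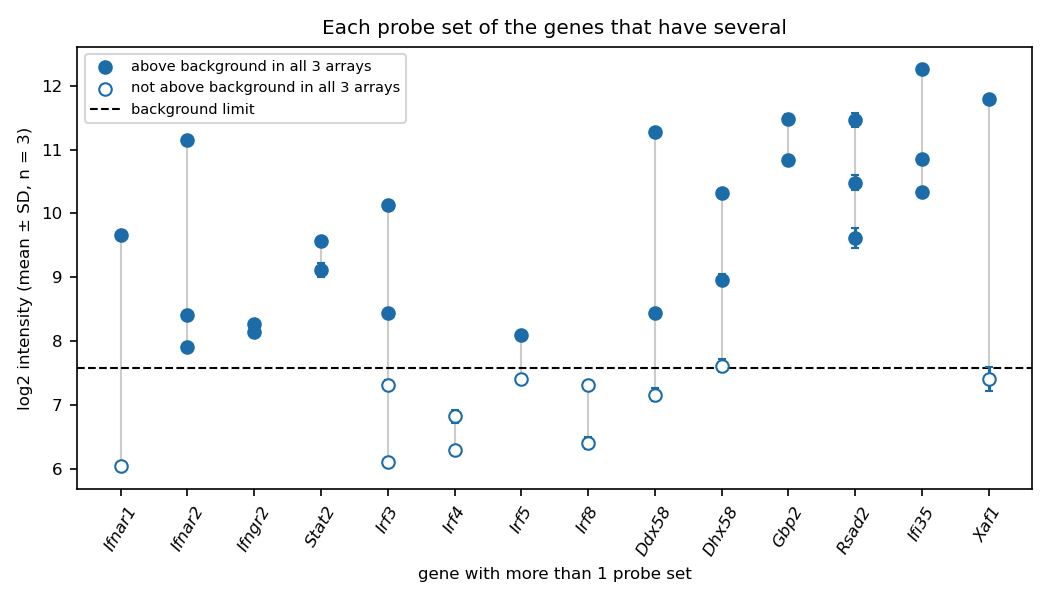
Log2 intensity (y axis, mean ± SD, n = 3) of each probe set of the 14 members that have more than 1 (x axis), filled where all 3 arrays were above the background limit (dashed line, 7.58) and open otherwise. Filled and open symbols occur together in 6 members.

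The spread between arrays was small. Over the 31 members above background the SD ranged between 0.01 and 0.13, with a median of 0.056, against 0.048 for all genes above background. An SD of 0.1 or more was found in 4 members, Irf2, Ifit2, Rsad2 and Bst2, and in 8.46% of all genes above background. Of the 31 members, 19 were lowest in replicate 1, as were 44.7% of all genes above background. In replicate 3 minus replicate 1, 21 of the 31 members (67.7%) were positive, with a median difference of 0.05, against 59.2% and 0.02 for all genes. In replicate 2 minus replicate 1, 20 (64.5%) were positive, with a median of 0.04, against 61.8% and 0.02. These 2 shares lay near those of all genes. Actin had its highest 3' over 5' ratio in replicate 1, at 1.70, and Gapdh in replicate 2, at 1.14, and their part in these differences was not tested.

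The differences between arrays are also given by role and by promoter, splits that were chosen after the values were seen and carry no test. Of 20 sensors and effectors above background, 16 were higher in replicate 3 than in replicate 1 (median 0.06, range -0.14 to 0.23), beside 59.2% of all genes above background. Of 11 receptors and transcription factors, 5 were higher in replicate 3 (median -0.03, range -0.14 to 0.20). Split by promoter, 10 of the 11 members with an ISRE match were higher in replicate 3 than in replicate 1 (median 0.12), Gbp3 being the exception, and 7 of the 15 without one were (median -0.03). In replicate 2 minus replicate 1, 8 of 11 with a match and 8 of 15 without were positive, beside 61.8% of all genes above background. Among all genes above background with a window, 58.4% of 670 genes with an ISRE match and 59.5% of 7376 genes without one were higher in replicate 3. These are differences between single arrays of 1 group.

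**Figure D5:**
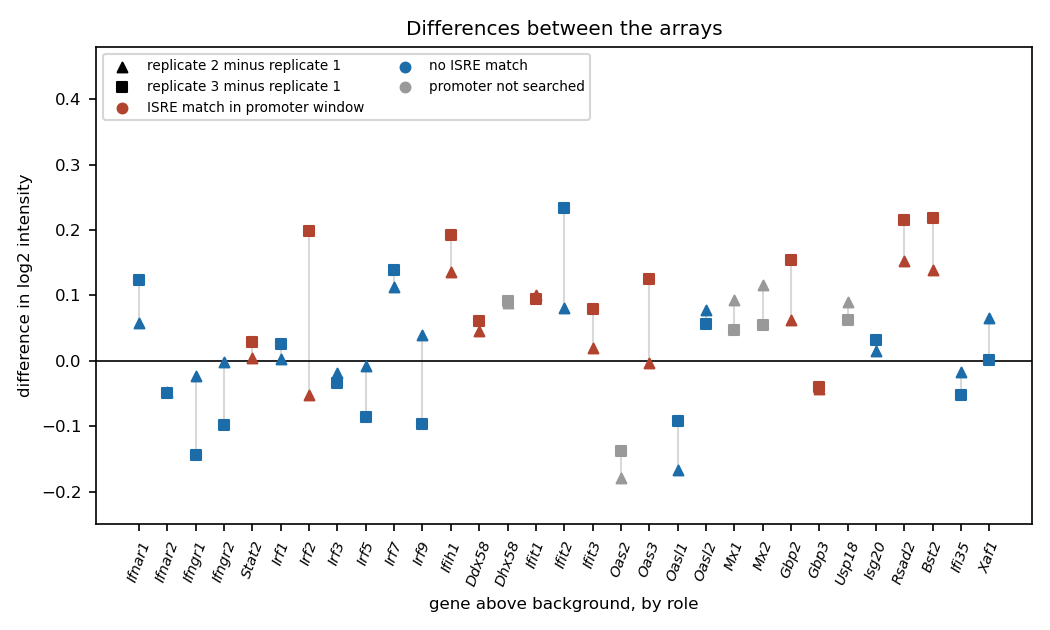
Difference in log2 intensity (y axis) of replicate 2 minus replicate 1 (triangles) and replicate 3 minus replicate 1 (squares) for the 31 members above background (x axis, by role), coloured by whether the promoter window held an ISRE match (red), held none (blue) or was not searched (grey). Squares lie above 0 for 10 of the 11 red members, beside 58.4% of all genes above background with an ISRE match.

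Genes upstream of the members were set beside them by the same rule. None of 6 measured interferon genes was above background in all 3 arrays, against 54.4% of all genes. Ifnb1, the first interferon made by most cells, was at 6.85, 6.60 and 6.86 (6.77 ± 0.15, SD, n = 3), and Ifng at 4.65, 4.92 and 4.45 (4.67 ± 0.24, SD, n = 3). Ifna1 was at 7.57, 7.63 and 7.66 and thus crossed the limit of 7.58 in 2 of 3 arrays, while Ifna2, Ifna4 and Ifna5 were below it in every array. A signal below the limit does not show that a transcript is absent. Ifne and Ifnk were not analysed here.

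Signalling genes were counted beside the 54.4% of all genes that were above background. All 13 measured kinases, STATs and inhibitors were above background, with Jak1 at 11.44, 11.47 and 11.63 (11.51 ± 0.10, SD, n = 3), Tyk2 at 8.08, 8.15 and 8.16 (8.13 ± 0.04, SD, n = 3) and Stat3 at 11.04, 11.07 and 11.10 (11.07 ± 0.03, SD, n = 3). Of 14 genes for nucleic acid sensing and its adaptors, 11 were above background, against 54.4% of all genes. The exceptions were Aim2, Tlr7 and Tlr9, a DNA sensor and endosomal receptors best known from immune cells. The RNA receptor gene Tlr3 was above background, at 9.29, 9.28 and 9.45, as was the adaptor gene Mavs, at 9.81, 9.92 and 9.88. Tlr3 and Mavs were chosen after their values were seen.

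Interferon-stimulated genes outside the set were counted as well. Their list was chosen with earlier results of these data known, so the count is no independent check of the members. Of 36 measured further interferon-stimulated genes, 33 were above background, against 54.4% of all genes. The chemokine gene Cxcl10, a common marker of interferon response, was at 10.31, 10.40 and 10.55 (10.42 ± 0.12, SD, n = 3). The related Cxcl9 was at 7.55, 7.82 and 7.60 and Cxcl11 at 6.28, 6.15 and 5.94, and neither was above background in all 3 arrays, nor was Ifitm1. All 14 measured genes of MHC class I antigen presentation were above background, against 54.4% of all genes. Of these, B2m was at 14.49, 14.45 and 14.44 (14.46 ± 0.03, SD, n = 3). Of 6 measured class II genes, 2 were above background, against 54.4% of all genes. These were Cd74 and H2-DMa, the latter on 1 of its 2 probe sets, whereas H2-Aa, H2-Ab1, H2-Eb1 and Ciita were not above background. All 6 are named, a choice made after their values were seen. Ciita, the class II transactivator, was at 6.64, 6.64 and 6.52. Mb21d1, Tmem173, Traf3, Gbp5, Tgtp1, Psme2 and H2-DMb1 of these lists were not analysed here.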

How the data were processed

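RNA of 3 samples of 3T3-L1 adipocytes, replicates of 1 glucose oxidase group, was measured on mouse4302 arrays. The authors deposited 1 intensity per probe set, made by RMA, which corrects background, normalizes and summarises probes, with affyPLM (version not given in the sources used here). Values are linear, between 6.26 and 25611, and log2 was taken. Which arrays were normalized together, and any rescaling, is not known, so the background limit holds for these values only. The number of arrays limits the precision.

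Of 45101 probe sets, 34958 were annotated with 1 gene, 932 with several and 9211 with none. By Entrez identifier 34754 matched RefSeq (GRCm38.p6) and 0 symbols changed. A gene was read from the probe set whose mean was highest. With 1 group, no test was made. The members and gene lists were chosen with earlier results of these data known. All members are named, and of the other lists genes picked by role and, in lists of 7 or more measured genes, up to 6 of the rarer call. Other limits, background genes, probe set rules, centring, no filter, each array left out and other motif patterns were tried. The procedure was tested on simulated data. Python 3.11.15, pandas 2.3.3, numpy 2.4.6 and matplotlib 3.10.9 were used.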

Additional observations from a re-analysis of the deposited data

How the results depend on the processing

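No paired analysis was possible because only 1 group was analysed. The number of members above background, 31, was between 25 and 31 under every alternative run, and Irf4 and Irf8 were not above background under any of them. Without any 1 of the arrays it was 31. The median SD of members above background, 0.056, was 0.041, 0.064 and 0.041 without replicates 1, 2 and 3. The median differences between arrays kept their sign under the alternatives run, but that of replicate 2 minus replicate 1, 0.039, was 0.019 with no filter on low values and 0.061 once cross-hybridising probe sets were left out. With the median of probe sets, the levels of 19 members with a single probe set could not move. Of the 14 members with several, 8 moved by more than 1.5-fold (Ifnar1, Ifnar2, Irf3, Ddx58, Dhx58, Rsad2, Ifi35 and Xaf1). Without cross-hybridising probe sets 3 of 32 levels moved so far (Irf3, Gbp2 and Ifi35), and Irf2 was no longer measured. Leaving out 1 of 3 arrays cannot move a mean by more than 1 SD. The count of interferon genes above background, 0, was 1 with the 90th percentile, with the mean over the arrays and without replicate 1, Ifna1 in each case, and ranged from 0 to 1 on leaving out each array. The class II count, 2, was 1 with the 99th percentile and with every probe set. When every probe set had to pass, 31.4% of all genes did. Counts were then 9 of 13 kinases, STATs and inhibitors, 9 of 14 sensing genes and 27 of 36 further interferon-stimulated genes. Those of class I genes, NF-kappaB genes and chemokine and cytokine ligands were 10 of 14, 7 of 11 and 9 of 18. The lymphocyte marker count, 3, was 1 with the 99th percentile, with the limit set by keratin-associated and defensin genes, with the median of probe sets and with every probe set, and the dendritic cell count, 2, was 1 with every probe set. Read on the strand of the gene only, the ISRE pattern was present in 5 of 30 members, against 5.15% of genes, and a stricter GAS pattern, TTCCNGGAA, in 3 of 30, against 1.35%. Signal near background limits the calls of Oasl1, Irf5, Ifngr2 and Oas3, whose lowest array was within 1 log2 unit of the limit.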

Other observations

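Genes of inflammation were counted by the same rule, without a test. Of 11 measured NF-kappaB subunits and inhibitors, 10 were above background, against 54.4% of all genes, Rel being the exception. Of 18 measured chemokine and cytokine ligands, 12 were above background, against 54.4% of all genes. Among them was Ccl5, a chemokine gene that interferon regulatory factors can activate, at 9.25, 9.15 and 9.16 in replicates 1, 2 and 3 (9.19 ± 0.06, SD, n = 3). Those not above background were Cxcl2, Il10, Il15, Il1b, Il33 and Tnf. Ccl5 was chosen after its values were seen. Chuk and Nfkb1 were not analysed here.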
